A study of Mus musculus with 48 samples.

Results

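The interaction of genotype and open field exposure was examined in the GABA-CB1 line, that is, how much the difference between GABA-CB1-KO and GABA-CB1-WT hippocampi after the open field departed from the same difference in the basal condition. All 24 libraries of this line were used, out of 48 libraries in the series, and the other 24 came from the Glu-CB1 line. The members were therefore fixed by the labels and not by any measured value. The 4 groups were GABA-CB1-WT basal (n = 6), GABA-CB1-KO basal (n = 6), GABA-CB1-WT open field (n = 7) and GABA-CB1-KO open field (n = 5), with 1 mouse per library. These sizes are those of the sample labels, and the study's text gives other sizes for the open field groups of this line. All mice were males labelled as 8 weeks old of the strain dlx5/6-cre x CB1f/f, and the tissue was the Cornus Ammonis of the hippocampus, dissected free of the dentate gyrus. GABA-CB1-KO mice lose CB1 where Cre is driven by regulatory elements of dlx5/6, in forebrain GABAergic neurons, so CB1 in glutamatergic neurons, glia and neurons of other origin is retained. The GABA-CB1-WT mice were littermates. Open field mice explored a white box for 5 minutes and were killed an hour later, while basal mice stayed in the home cage. The measurement was RNA-sequencing of total RNA from whole tissue, read as counts per gene, so that fewer cells of a type and less RNA per cell cannot be told apart.

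CB1, encoded by Cnr1, is a presynaptic receptor that lowers transmitter release when endocannabinoids, formed on demand in the postsynaptic neuron, reach the terminal. In the hippocampus its densest expression is in a class of GABAergic interneurons that also contain cholecystokinin. Exploration of a new arena is known to induce activity-regulated genes in hippocampal neurons, first transcription factors such as Fos and the Egr and Nr4a families and then effector genes that act at synapses.

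The genes with the lowest interaction p-values differed between the positive and the negative side in the base composition of their transcripts, and a stretch of coding exon from 2 genes of each side is shown for this reason. Each is the first 120 bases of the gene's longest coding exon in the GRCm38 assembly (mm10), 5′ to 3′ on the coding strand, with G and C in capitals.
Pwwp2b: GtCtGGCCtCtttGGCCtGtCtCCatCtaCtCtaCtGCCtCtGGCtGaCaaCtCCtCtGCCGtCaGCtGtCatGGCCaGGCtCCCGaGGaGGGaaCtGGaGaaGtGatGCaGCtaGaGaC
Psmb3: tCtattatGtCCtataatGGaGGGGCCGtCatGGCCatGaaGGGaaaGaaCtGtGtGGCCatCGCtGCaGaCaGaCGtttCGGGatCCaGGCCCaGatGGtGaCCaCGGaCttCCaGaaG
Sos1: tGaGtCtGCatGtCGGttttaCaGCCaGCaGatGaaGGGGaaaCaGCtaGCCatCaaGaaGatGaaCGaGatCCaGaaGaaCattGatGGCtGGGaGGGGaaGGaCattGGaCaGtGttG
Pcsk1: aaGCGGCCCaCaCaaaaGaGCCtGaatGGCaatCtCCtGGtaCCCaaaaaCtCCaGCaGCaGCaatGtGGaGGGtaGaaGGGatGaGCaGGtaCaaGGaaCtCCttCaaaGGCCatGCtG
The Pwwp2b stretch lies at chr7:139254770-139254889 on the plus strand in exon 2 of 3. Psmb3 is shown at chr11:97703788-97703907 on the plus strand, in exon 2 of 6. That of Sos1 is at chr17:80434033-80434152 on the minus strand, in exon 10 of 22, and that of Pcsk1 at chr13:75131942-75132061 on the plus strand, in exon 14 of 14. G and C made up 58.3% and 54.2% of the first pair of stretches, and 49.2% and 52.5% of the second pair. Over whole transcripts the gap was wider, at 57.0% for Pwwp2b and 53.8% for Psmb3 against 40.96% for Sos1 and 40.6% for Pcsk1.

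Between 25892654 and 34091080 reads were counted on genes per library. Cnr1, the targeted gene, is given as CPM, the counts scaled to library size with TMM normalisation. In GABA-CB1-WT hippocampi it ranged from 311.7 to 389.6 CPM in the basal condition (median 347.5) and from 337.3 to 394.1 after the open field (median 368.4). In GABA-CB1-KO hippocampi it ranged from 140.3 to 158.7 CPM in the basal condition (median 149.5), and the 5 open field libraries had 154.4, 130.3, 143.2, 101.1 and 146.8 CPM. Every KO library was below every WT library, as the labels state. The log2 fold change of KO against WT was -1.24 in the basal condition (adjusted p = 3.21e-11) and -1.45 after the open field (adjusted p = 2.15e-12, edgeR quasi-likelihood test with Benjamini-Hochberg adjustment, as for all adjusted p-values unless another tool is named).

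2 libraries stood apart by choroid plexus transcripts. Ttr, which encodes transthyretin and is a product of choroid plexus epithelium, was at 3877 CPM in GABA-CB1-KO open field replicate 4 and at 1392 CPM in GABA-CB1-WT basal replicate 3, and between 15.7 and 63.5 CPM in the other 22 libraries. A list of 18 choroid plexus and ependymal genes summed to 5550 and 2438 CPM in these libraries and to between 233.7 and 349.6 CPM elsewhere. The KO library was also the lowest in Cnr1 and the WT library the highest in a summed list of dentate granule cell markers, at 837.2 CPM against 464.1 to 649.6 CPM in the other libraries of the line. Dentate markers were thus present in all 24 libraries, beside markers of CA1 (779.1 to 1041 CPM) and of CA3 and CA2 pyramidal cells (1133 to 1450 CPM). Both libraries high in Ttr sat on the sides of the contrast that raise its value. The counts over all genes and most of the gene lists are therefore also given without the KO library. The summed list of CCK and VIP interneuron markers, which contains Cnr1 itself, ranged from 432.9 to 483.1 CPM in KO and from 637.7 to 730.1 CPM in WT libraries. This gap does not describe the list as a whole. Over its 12 genes the median log2 fold change of KO against WT was 0.02 in the basal condition and 0.04 after the open field.

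**Figure D1:**
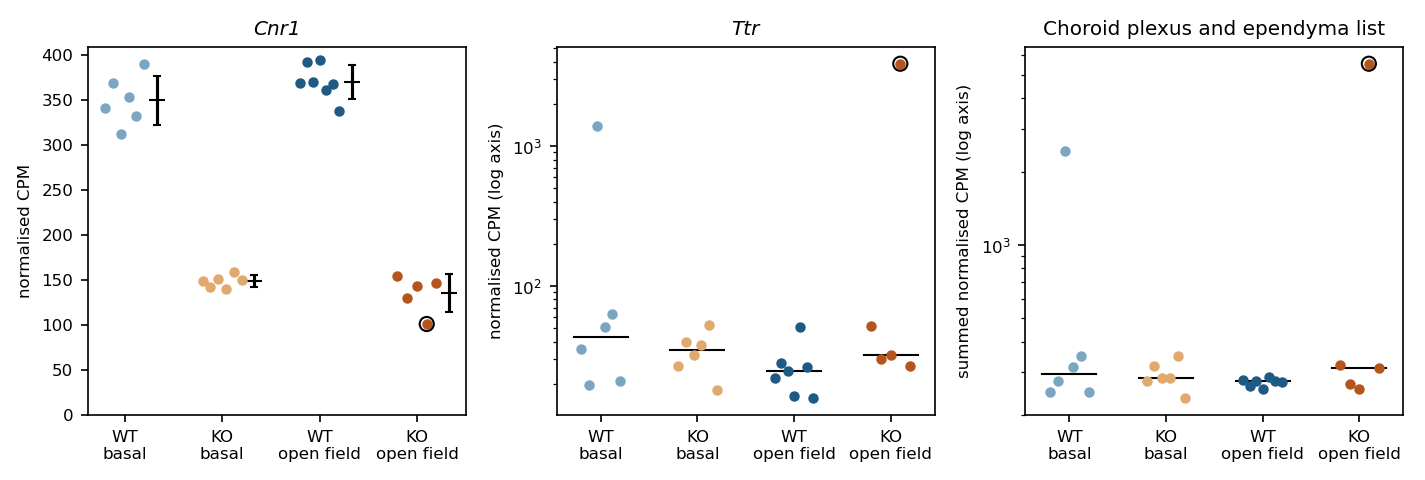
Normalised CPM of Cnr1, of Ttr and of the summed choroid plexus and ependyma list in each of the 24 libraries by group, with mean and SD for Cnr1 and the median as a bar on the 2 log axes; the ring marks GABA-CB1-KO open field replicate 4. Every KO library lies below every WT library in Cnr1, and 2 libraries lie above 1000 CPM in Ttr.

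Whether the genotype difference after the open field departed from that in the basal condition depended on the tool, with no gene past the adjusted threshold by edgeR or limma and a small number by DESeq2. Of 15374 genes tested, 0 (0%) had an adjusted p under 0.05 by edgeR's quasi-likelihood test, and the lowest adjusted p was 0.198. At an unadjusted p under 0.05 there were 2237 genes, which is 14.6% of those tested, with 1146 positive (7.45%) and 1091 negative (7.10%). The median size of the interaction was 0.10 on the log2 scale with a median standard error of 0.09, and 90% of genes were within 0.30. limma voom with sample quality weights called 0 genes as well (2323 at unadjusted p under 0.05). DESeq2 called 63 genes (0.410%), 39 positive and 24 negative, with 2197 at an unadjusted p under 0.05 and it gave no adjusted p for 6862 genes, Psmb3, Alg13 and Ttr among them. Of these 63 genes, 51 were among the 63 with the lowest p by edgeR. The sizes of their interactions lay between 0.11 and 0.53.

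Without GABA-CB1-KO open field replicate 4, edgeR called 0 of 15418 genes, the lowest adjusted p was 0.0553, and 1742 genes (11.3%) were at an unadjusted p under 0.05. DESeq2 then called 12 genes (0.0778%), 10 positive and 2 negative, of which 11 were among its 63 over all libraries. Among the 24 fits that each lacked 1 library, 1742 was the lowest number at an unadjusted p under 0.05, and the highest, 2931 genes, came without GABA-CB1-KO open field replicate 5. Leaving out GABA-CB1-WT open field replicate 7 gave the only call of edgeR over these fits, Pwwp2b (adjusted p = 0.0363). The animal numbers in the titles fell into a range under 600 and a range over 600, and both ranges held mice of all 4 groups. Within the lower range 474 genes (3.05%) and within the upper range 1301 genes (8.45%) were at an unadjusted p under 0.05, with 0 called in either.

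**Figure D2:**
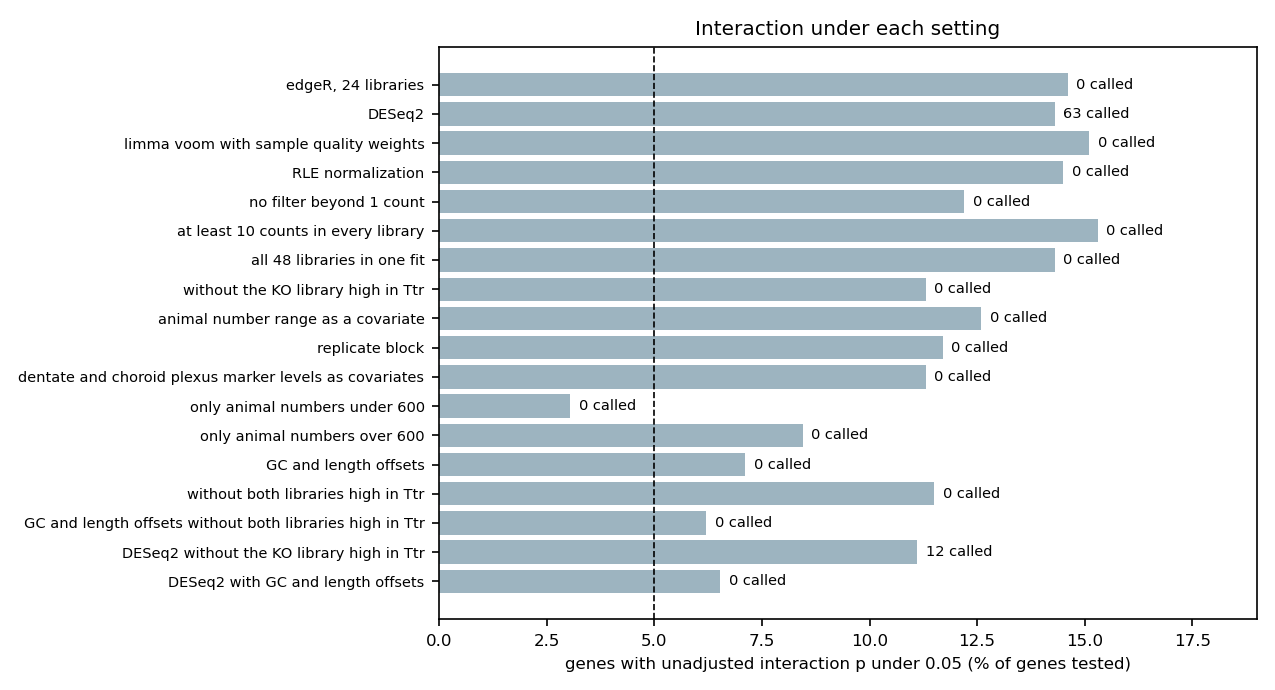
Share of genes tested with an unadjusted interaction p under 0.05 (% of genes) under each setting, with the number of genes called beside each bar and a dashed line at 5%. The share was 14.6% over 24 libraries, 11.3% without the KO library high in Ttr and 7.11% with GC and length offsets.

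The 24 genes with the lowest p comprised 17 with a positive and 7 with a negative interaction, and each of them had an adjusted p of 0.198 by edgeR. DESeq2 called 20 of the 24 over all libraries (all but Psmb3, Ttr, Ppp4c and Alg13), 10 without GABA-CB1-KO open field replicate 4 and 0 with GC and length offsets. The 10 were Pwwp2b, Psmb3, Them6, Stoml1, Sos1, Nbl1, Tmem198, Matn2, Pcsk1 and Adra1d. Pwwp2b, which encodes a PWWP domain protein associated with chromatin, had 39.8, 40.0, 37.9, 36.3 and 40.4 CPM in the GABA-CB1-KO open field libraries. It ranged from 32.1 to 36.4 CPM in GABA-CB1-WT open field (median 32.96), from 30.7 to 34.6 in KO basal (median 33.2) and from 33.4 to 36.3 in WT basal (median 34.4). All but 1 of the KO open field libraries were thus above every other library, and replicate 4 overlapped the WT range. The interaction was 0.28 ± 0.05 (SE, adjusted p = 0.198), and 0.30 without replicate 4 (adjusted p = 0.0553).

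Psmb3, a beta subunit of the 20S proteasome, had 14.2, 15.6, 14.4, 13.8 and 13.2 CPM in KO open field libraries against 11.8 to 12.6 CPM (median 12.0) in WT open field, without overlap. The KO basal libraries ranged from 10.4 to 13.3 CPM (median 12.1) and the WT basal libraries from 11.9 to 14.6 CPM (median 13.3). In the basal condition the order of the genotypes was thus the opposite, although the ranges overlapped. The interaction of Psmb3 was 0.38 ± 0.08 (adjusted p = 0.198), and 0.39 without replicate 4.

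Matn2, an extracellular matrix protein, had 117.4, 109.9, 97.4, 99.5 and 95.0 CPM in KO open field libraries. It ranged from 79.7 to 93.9 CPM in WT open field (median 84.9), from 81.6 to 88.3 in KO basal (median 87.0) and from 84.6 to 102.4 in WT basal (median 89.2). The KO open field libraries lay above both the WT open field and the KO basal libraries. The interaction was 0.33 ± 0.07 (adjusted p = 0.198), and 0.34 without replicate 4. Matn2 was among the genes called in the simple differences, higher in KO than in WT after the open field (log2 fold change 0.26, adjusted p = 0.0357) and higher after the open field than before in KO (0.27, adjusted p = 0.0457).

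Of the other positive genes, Them6, Ctnnbl1, Limd2 and Elmo2 had KO open field libraries that all lay above the WT open field libraries, and the rest overlapped. The gap was small for Limd2 (90.3 against 89.5 CPM) and Elmo2 (228.4 against 228.3 CPM). All were picked by low p in these same libraries, which favours such gaps, and no share over all genes is given beside them. Them6 (0.37), Nbl1 (0.37), a secreted antagonist of bone morphogenetic proteins, Ssna1 (0.35), Slc2a6 (0.34), a hexose transporter, and Tmem198 (0.31) had the larger values. Limd2 (0.24), Stoml1 (0.23), Asphd2 (0.22), Adra1d (0.22), an alpha-1 adrenergic receptor, Elmo2 (0.21), Ppp4c (0.20), a protein phosphatase subunit, Ctnnbl1 (0.19) and Stx6 (0.17), a syntaxin of the trans-Golgi network, were lower. For Nbl1 the KO open field libraries had 95.4, 74.5, 73.7, 86.9 and 75.0 CPM against 68.5 to 77.7 CPM in WT open field, so that replicates 1 and 4 alone lay above the WT range, and without replicate 4 its interaction was 0.35. Ttr completed the positive side with 7.87 ± 1.69 (adjusted p = 0.198), which fell to 3.35 (adjusted p = 0.347) without replicate 4.

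On the negative side, Pcsk1, the prohormone convertase that cleaves neuropeptide precursors in secretory granules, had 13.9, 15.8, 18.1 and 18.6 CPM in KO open field replicates 1, 2, 3 and 5, and replicate 4 lay between the second and the third of these. It ranged from 19.1 to 24.2 CPM in WT open field (median 23.4), from 17.1 to 23.5 in KO basal (median 18.9) and from 15.2 to 20.5 in WT basal (median 17.9). After the open field every KO library was below every WT library, while the basal ranges of the genotypes overlapped. The interaction was -0.53 ± 0.12 (adjusted p = 0.198), -0.56 without replicate 4, and -0.41 with the offsets for GC content and length described below. Pcsk1 was called as lower in KO than in WT after the open field (log2 fold change -0.43, adjusted p = 0.0475) and not in the basal condition (0.11, adjusted p = 0.841), while the difference of these differences is the interaction. The interaction of Pcsk1 did not pass by edgeR and passed by DESeq2 (adjusted p = 0.0254, and 0.0395 without replicate 4), but not by DESeq2 with offsets (adjusted p = 0.378).

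Sos1, a guanine nucleotide exchange factor that activates Ras, had 98.4, 104.4, 102.4, 100.4 and 103.4 CPM in KO open field libraries against 103.0 to 122.8 CPM (median 112.6) in WT open field. In the basal condition it ranged from 98.2 to 114.1 CPM in KO (median 109.4) and from 91.6 to 106.8 CPM in WT (median 100.2), so the medians of the genotypes changed order between the states while the ranges overlapped in both. The interaction of Sos1 was -0.28 ± 0.06 (adjusted p = 0.198), the same without replicate 4 and -0.11 with the offsets. Cpeb2, which binds cytoplasmic polyadenylation elements of mRNAs, had 87.2, 84.1, 93.0, 79.9 and 99.3 CPM in KO open field libraries against 94.3 to 115.5 CPM (median 102.2) in WT open field, and an interaction of -0.33 ± 0.08 (adjusted p = 0.198), which was -0.30 without replicate 4. Here 4 KO libraries were below the lowest WT library and replicate 5 was within the WT range. The other negative genes were Alg13 (-0.34), of protein glycosylation, D930016D06Rik (-0.29), Mier1 (-0.23), a transcriptional co-regulator, and Zmpste24 (-0.17), the protease that matures prelamin A.

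**Figure D3:**
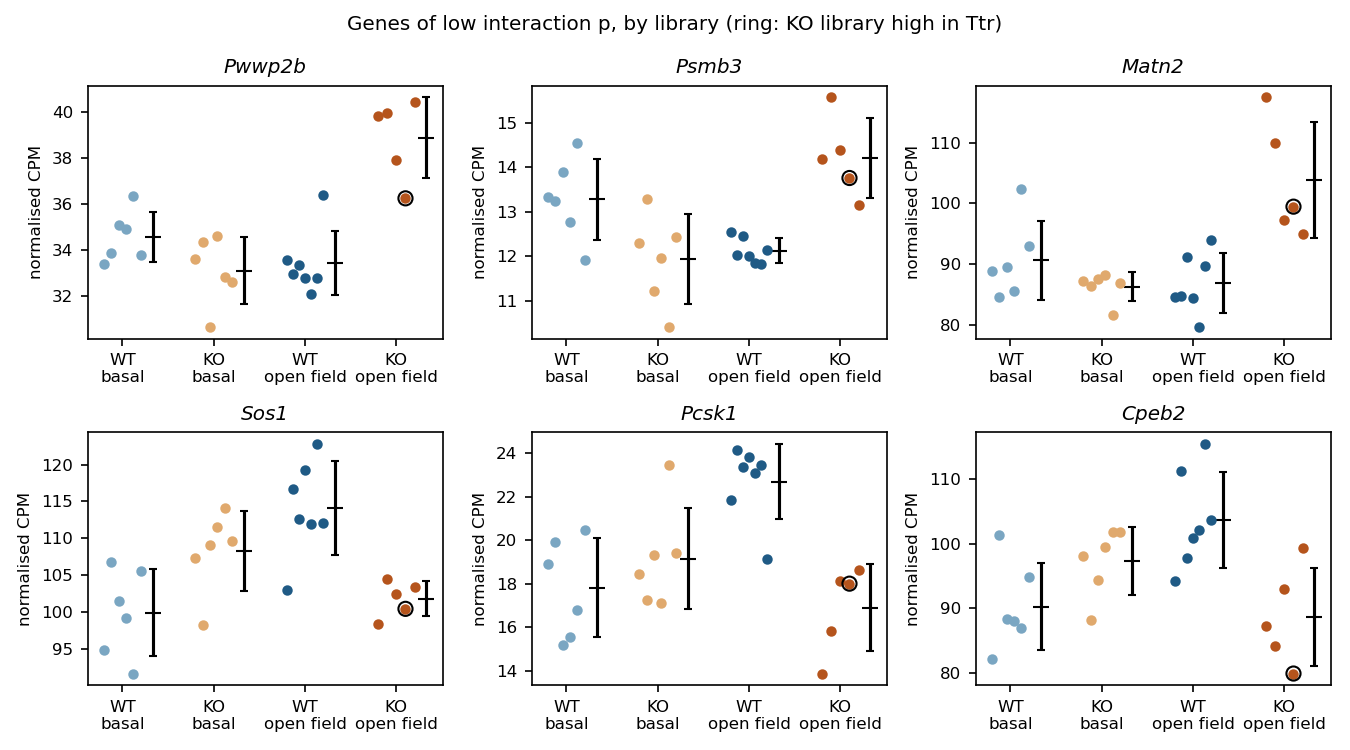
Normalised CPM of 3 genes with a positive and 3 with a negative interaction among the 24 with the lowest p, in each of the 24 libraries by group, with mean and SD beside the points; the ring marks GABA-CB1-KO open field replicate 4. Psmb3 and Matn2 of KO open field lie above and Pcsk1 below all 7 WT open field libraries.

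Across genes the interaction followed the GC content of the transcript and, more weakly, exon length. Over 15273 genes with a known GC content, Spearman's rho between the interaction and the GC content of the longest protein-coding transcript was 0.51, and 0.45 without GABA-CB1-KO open field replicate 4. With exon length rho was -0.25 over all 24 libraries. These are descriptions across genes that share the same libraries. In 4 bins of nearly equal size, the median interaction was -0.10 in the bin of lowest GC (29.63% to 45.45%), -0.03 and 0.04 in the next bins and 0.10 in the bin of highest GC (54.98% to 78.95%). Of the genes at an unadjusted p under 0.05, the lowest bin held 759 negative and 34 positive genes, and the highest bin 19 negative and 710 positive genes. The 39 positive genes called by DESeq2 had a median GC content of 57.4%, and its 24 negative genes one of 40.95%.

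The gradient was in opposite directions in the parts of the contrast. For KO against WT the rho was -0.26 in the basal condition and 0.50 after the open field, and for the open field against the basal condition it was -0.34 in WT and 0.40 in KO. A GC index of each library, the mean log2 deviation of the genes in the highest bin minus that of the lowest bin, was highest in GABA-CB1-KO open field replicate 4 at 0.22 and had values of 0.13, 0.02, 0.14 and -0.08 in the others of that group. It ranged from -0.19 to 0.16 in WT open field (median -0.04), from -0.12 to 0.11 in KO basal (median -0.05) and from -0.11 to 0.15 in WT basal (median 0.02), so all groups overlapped. The interaction of the index was 0.21 with an exact two-sided permutation p of 0.0232 (0.0696 adjusted over 3 contrasts), and 0.18 without replicate 4 (exact permutation p = 0.0526, adjusted 0.158). It was 0.15 among animal numbers under 600 and 0.21 over 600. The index was built after the gradient was seen in these same libraries. Its p-values are therefore no independent evidence of the gradient. The running numbers in the titles mostly followed the groups, and the labels do not say what these numbers record. Anything that followed this numbering is hard to tell apart from the group.

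**Figure D4:**
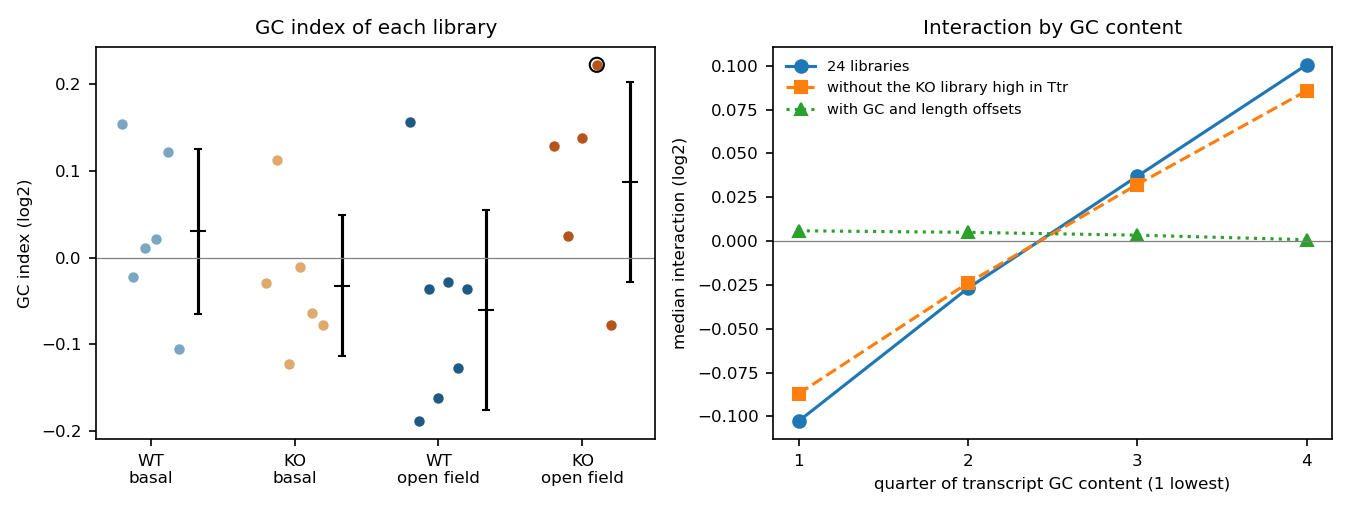
Left, the GC index (log2) of each library by group with mean and SD, the ring marking GABA-CB1-KO open field replicate 4; right, the median interaction (log2) in 4 bins of transcript GC content for all 24 libraries, without that library and with GC and length offsets. The median went from -0.10 to 0.10 across the bins over 24 libraries and stayed within 0.01 of 0 with offsets.

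When each library was corrected for GC content and length by offsets, rho with GC content was -0.02 by construction. These offsets, called GC offsets below, correct for both together. A change under them cannot be assigned to GC content alone. edgeR then called 0 genes and DESeq2 called 0 genes, with 1093 (7.11%) and 1004 at an unadjusted p under 0.05. The 63 genes of DESeq2 all kept their sign, with a median size of 0.12 in place of 0.23. Among the genes named above, Matn2 (0.32), Psmb3 (0.28), Elmo2 (0.18) and Cpeb2 (-0.27) had the lowest p after Ttr, each with an adjusted p of 0.547, while Adra1d (0.08), Mier1 (-0.06) and Zmpste24 (-0.05) came closer to 0. The part of GC content or of length in the interaction of any single gene was not tested.

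Activity-regulated transcription factors mostly had a negative interaction, that is, a smaller fitted open field response in KO than in WT, and the median was closer to 0 when 1 basal KO library was left out. Of 25 such genes tested, 21 had a negative interaction, against 48.6% of all genes. At an unadjusted p under 0.05, 4 were negative and 0 positive, against 7.10% and 7.45% of all genes. The median was -0.15, against 0.01 over all genes. Called as higher after the open field were 11 in WT, against 0.182% of all genes, and 2 in KO, against 0.0781%. The 11 were Fos, Fosb, Fosl2, Junb, Egr1, Egr2, Egr3, Egr4, Nr4a1, Nr4a3 and Klf10, and the 2 in KO were Egr1 and Egr4. The median response was 0.32 in WT and 0.21 in KO.

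Fos ranged from 1.80 to 3.82 CPM in WT basal (median 2.39) and from 8.43 to 23.5 CPM in WT open field (median 14.4). In KO basal 5 libraries had 1.16 to 2.88 CPM and replicate 5 had 9.67 CPM, and the KO open field libraries had 7.31, 9.92, 6.42, 14.7 and 10.6 CPM. Both genotypes thus lay above their basal libraries after the open field with the exception of KO basal replicate 5, which was within the KO open field range. The interaction of Fos was -0.85 ± 0.51 (adjusted p = 0.431), and -0.20 without KO basal replicate 5.

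Egr2, a zinc finger factor of the same early class, had 0.62 to 1.27 CPM in WT basal and 4.83 to 12.3 CPM in WT open field. KO basal replicate 5 had 9.73 CPM where the other KO basal libraries had 0.80 to 1.47, and the KO open field libraries had 6.79, 8.02, 5.19, 9.89 and 10.2 CPM. The interaction was -1.37 ± 0.66 (adjusted p = 0.338), -0.17 without KO basal replicate 5 and, among animal numbers under 600, reversed to 0.02. The same library was the highest of its group in Fosb (9.09 CPM), Egr1 (151.8 CPM), Fosl2 (68.1 CPM), Nr4a3 (174.8 CPM) and Bdnf (52.9 CPM). After the open field Fosb had 5.08 to 9.89 CPM in KO and 10.1 to 16.5 CPM in WT, without overlap (log2 fold change -0.78, adjusted p = 0.109). Without KO basal replicate 5 this difference was called, although that library is in neither of its groups. The fit shares its estimate of the spread over the 4 groups, so leaving out a library also changes calls between other groups. The interaction of Fosb was -0.53 ± 0.34 (adjusted p = 0.473), and leaving out 1 library moved it between -0.63 and -0.07.

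Without KO basal replicate 5 the list had 19 of 25 negative interactions and a median of -0.07. It then had 0 genes at an unadjusted p under 0.05, against 12.9% of all genes. Called as higher after the open field were then 13 in WT, of 75 genes called in all, and 6 in KO, of 58. The 6 were Fos, Fosb, Egr1, Egr2, Egr4 and Nr4a3, and the median responses were 0.31 in WT and 0.28 in KO. Over all the fits that each lacked 1 library the list's median lay between -0.21, without GABA-CB1-KO open field replicate 4, and -0.07. With the GC offsets it was -0.21, with 20 of 25 negative against 48.4% of all genes.

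Among single factors, Nr4a2, an orphan nuclear receptor, had 35.6, 53.3, 47.6, 64.0 and 54.9 CPM in KO open field libraries against 49.1 to 75.9 CPM in WT open field (median 61.0). In the basal condition it ranged from 27.8 to 63.4 CPM in KO (median 44.97) and from 31.02 to 52.1 CPM in WT (median 37.1), so all 4 ranges overlapped. Its interaction was -0.46 ± 0.22 (adjusted p = 0.338), and -0.33 without KO basal replicate 5. Klf10 (-0.26 ± 0.11, adjusted p = 0.299) and Fosl2 (-0.37 ± 0.17, adjusted p = 0.323) were the other factors at an unadjusted p under 0.05. Egr1 responded in both genotypes, by 0.90 in WT and 0.73 in KO on the log2 scale, and its interaction was -0.17 ± 0.18 (adjusted p = 0.676).

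**Figure D5:**
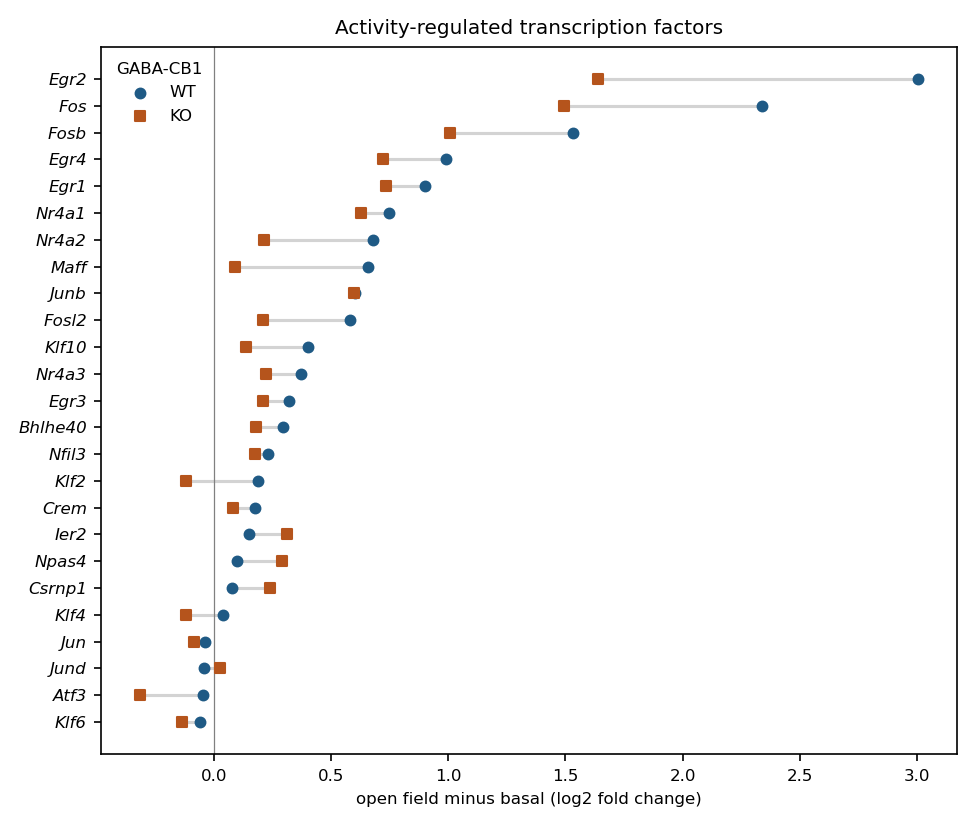
Log2 fold change of the open field against the basal condition in GABA-CB1-WT (circles) and GABA-CB1-KO (squares) for each of the 25 activity-regulated transcription factors tested, over all 24 libraries including GABA-CB1-KO basal replicate 5. The KO value is the lower one in 21 of 25 genes, and for Egr2 it is 1.64 against 3.01.

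Effector genes of activity had interactions of both signs, and the balance moved with 1 library. Of 29 tested, 15 had a positive and 14 a negative interaction, with a median of 0.01. At an unadjusted p under 0.05 were 3 negative and 0 positive, against 7.10% and 7.45% of all genes. Without GABA-CB1-KO open field replicate 4 there were 11 positive and 18 negative with a median of -0.03, and without both libraries high in Ttr 9 and 20 with a median of -0.07. Arc, a synaptic immediate early gene, had 99.01, 141.3, 127.3, 228.1 and 118.0 CPM in KO open field libraries, 86.4 to 216.5 in WT open field, 63.5 to 121.9 in KO basal and 75.1 to 119.1 in WT basal, with overlap of all groups. Its interaction of 0.01 ± 0.30 (adjusted p = 0.988) turned to -0.22 without GABA-CB1-KO open field replicate 4, the library with the highest Arc. Fbxo33 (-0.23 ± 0.07, adjusted p = 0.211) and Rgs4 (-0.29 ± 0.10, adjusted p = 0.229), a regulator of G protein signalling, had the lower p on this list after Pcsk1. Among 13 feedback inhibitors of MAP kinase signalling, 7 were negative and 6 positive, Dusp14 at 0.31 (adjusted p = 0.211) and Spred1 at -0.21 (adjusted p = 0.271), which was -0.05 with GC offsets. Without replicate 4, 8 of the 13 were negative. Spred1 and Errfi1 were called as higher after the open field in WT, by 0.26 (adjusted p = 0.0445) and 0.43 (adjusted p = 0.0294).

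Of the 14 endocannabinoid genes tested, 12 had a positive interaction, against 51.4% of all genes, and the median was 0.08. Without replicate 4 of the KO open field group 12 were positive, with a median of 0.10. At an unadjusted p under 0.05 were 3 positive genes of endocannabinoid synthesis and breakdown, and Cnr1 itself on the negative side. Over all genes 7.45% were positive and 7.10% negative at that p. Dagla, which forms 2-arachidonoylglycerol, had 239.5, 218.3, 224.2, 253.5 and 225.3 CPM in KO open field libraries against 201.8 to 212.7 CPM in KO basal, without overlap. In WT it ranged from 181.3 to 233.6 CPM after the open field and from 205.1 to 247.8 CPM in the basal condition. The interaction of Dagla was 0.25 ± 0.07 (adjusted p = 0.210), and 0.22 without replicate 4.

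Mgll, the lipase that degrades 2-arachidonoylglycerol (0.17 ± 0.06, adjusted p = 0.211), and Faah, the hydrolase of anandamide (0.15 ± 0.05, adjusted p = 0.211), were also positive. With GC offsets Dagla, Mgll and Faah were at 0.17, 0.12 and 0.09, and 11 of the 14 genes were positive, against 51.6% of all genes. Ptgs2, cyclooxygenase-2, which also oxidises endocannabinoids, was lower in KO than in WT in the basal condition, at 27.9 to 34.3 CPM against 45.4 to 59.2 CPM without overlap (log2 fold change -0.67, adjusted p = 0.0289). After the open field the KO libraries had 56.7, 28.5, 29.3, 29.1 and 39.7 CPM and the WT libraries 39.6 to 53.5 CPM, so replicate 1 was above and 3 KO libraries were below the WT range. Its interaction was 0.35 ± 0.18 (adjusted p = 0.362), and leaving out 1 library moved it between 0.14 and 0.43. For Cnr1 the interaction of -0.22 ± 0.10 (adjusted p = 0.321) was -0.13 (adjusted p = 0.488) without GABA-CB1-KO open field replicate 4.

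Genes of GABA receptors, synthesis and transport were mostly negative, with 20 of 24 against 48.6% of all genes, 6 of them at an unadjusted p under 0.05 against 7.10%, and a median of -0.10. Without GABA-CB1-KO open field replicate 4, 19 of 24 were negative, 3 of them at an unadjusted p under 0.05, with a median of -0.08. Gad2, which encodes a GABA-synthesising enzyme, had 214.2, 206.0, 195.9, 202.1 and 219.9 CPM in KO open field libraries, 209.9 to 233.8 in WT open field, 204.3 to 229.2 in KO basal and 196.6 to 232.5 in WT basal, with overlap of all groups. Its interaction was -0.14 ± 0.06 (adjusted p = 0.274), and that of Gabra2, a GABA-A receptor subunit, was -0.26 ± 0.11 (adjusted p = 0.290). The list was of low GC content, at a median of 44.6% against 50.1% over all genes, and with GC offsets 19 of 24 were negative, 1 of them at an unadjusted p under 0.05, with a median of -0.06. Gad2 was then at -0.04 and Gabra2 at -0.11.

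Glutamate receptors and their auxiliary subunits had interactions of both signs, with 20 of 36 negative. At an unadjusted p under 0.05 were 8 negative genes, against 7.10% of all genes, and 5 positive genes, against 7.45%, and without replicate 4 there were 7 and 3. Grik1, a kainate receptor subunit, had 15.2, 18.9, 15.3, 16.95 and 17.6 CPM in KO open field libraries against 17.3 to 21.5 CPM in WT open field and 17.8 to 20.3 CPM in KO basal. Only replicates 2 and 5 of the KO open field group reached the WT range. The interaction was -0.34 ± 0.09 (adjusted p = 0.205), -0.35 without replicate 4 and -0.31 with GC offsets. Gria4, an AMPA receptor subunit, was at -0.25 ± 0.07 (adjusted p = 0.210), and at -0.14 with GC offsets.

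Among ion channels, Kcnab2, an auxiliary subunit of voltage-gated potassium channels, was at 0.18 (adjusted p = 0.201) and Scn1a, a sodium channel, at -0.23 (adjusted p = 0.229). With GC offsets Kcnab2 was at 0.09 and Scn1a at -0.10. Of 56 potassium channel genes 32 were negative, against 48.6% of all genes. At an unadjusted p under 0.05, 4 were positive and 1 negative, against 7.45% and 7.10% of all genes. Of the 31 calcium, sodium and HCN channel genes 16 were positive. Of the genes of synaptic vesicle release 21 of 38 were positive, and 13 with GC offsets. In these 3 lists the numbers of positive and negative genes were equal with and without replicate 4.

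Respiratory chain subunits were positive in 59 of 74 genes, 15 of them and 0 negative genes at an unadjusted p under 0.05, with a median of 0.05. Over all genes the shares were 51.4% positive and 7.45% positive at that p. Without GABA-CB1-KO open field replicate 4 the list had 64 positive genes, 14 of them at that p, and without replicate 1 of the same group 50 positive genes, 8 of them at that p, with a median of 0.03. Uqcr11 of complex III (0.29), Ndufa11 of complex I (0.24) and Sdhd of complex II (0.12) had the lowest p on the list. With the offsets for GC content and length together, 31 of 74 were positive and the median was -0.01, so that the direction of the list turned. The list had a median GC content of 51.1%, against 50.1% over all genes. The parts of GC content and of length in this turn were not tested apart. Sdhd (0.10) and Ndufa11 (0.13) kept an unadjusted p under 0.05, and Uqcr11 (0.11) did not. Of 20 heat shock and chaperone genes 15 were positive, with 0 at an unadjusted p under 0.05, and without replicate 4 again 15. Of 19 glucocorticoid response genes 10 were positive, with a median of 0.02, and without replicate 4 the direction turned, with 5 positive and 14 negative and a median of -0.11.

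Markers of other cell types varied with the contrast. The choroid plexus and ependyma list was positive in 16 of 17 genes, 14 of them at an unadjusted p under 0.05, with a median of 2.71. Over all genes the shares were 51.4% and 7.45%. Without GABA-CB1-KO open field replicate 4 the list was positive in 17 of 17, with 3 at that p and a median of 1.24. Without GABA-CB1-WT basal replicate 3 as well it was positive in 14 of 17, with 0 at that p and a median of 0.19. Kcne2 of this list was at 5.31 and reversed to -0.23 without both libraries high in Ttr. Microglial markers were positive in 10 of 12 genes with a median of 0.15, against 51.4% positive over all genes. At an unadjusted p under 0.05 were 6 positive genes (4 without replicate 4), against 7.45% of all genes. The summed markers ranged from 456.2 to 485.8 CPM in KO open field and from 433.2 to 467.0 CPM in WT open field. In the basal condition they ranged from 434.2 to 484.8 CPM in KO and from 467.3 to 524.4 CPM in WT. The median open field response of the list was -0.12 in WT and 0.03 in KO. Dentate granule cell markers were positive in 12 of 16 genes with a median of 0.24, which was 0.10 without GABA-CB1-WT basal replicate 3 and 0.03, with 9 of 16 positive, without both libraries high in Ttr. Oligodendrocyte and myelin markers were negative in 13 of 15 genes (14 without GABA-CB1-KO open field replicate 4), against 48.6% of all genes, with 0 at an unadjusted p under 0.05. Somatostatin interneuron markers were negative in 7 of 11 genes (8 without that library) and parvalbumin interneuron markers in 7 of 10 (again 7). The part of these cell types in the results above was not tested beyond the fit with dentate and choroid plexus levels as covariates, in which edgeR called 0 genes and 1735 were at an unadjusted p under 0.05.

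A list of genes discussed with these data was chosen in part on the same libraries and is no independent evidence of direction. Of its 16 members, 10 had a negative and 6 a positive interaction, and without replicate 4 of the KO open field group 11 and 5. Sptb, a beta spectrin of the membrane skeleton, had the lowest p on this list (0.17 ± 0.04, adjusted p = 0.201), with 341.0, 345.1, 342.9, 347.6 and 352.0 CPM in KO open field libraries, all above the 301.8 to 337.0 CPM of WT open field and the 314.7 to 338.3 CPM of KO basal. Ldb2, a LIM domain binding co-regulator, was at -0.45 ± 0.17 (adjusted p = 0.249), with 27.8, 35.9, 36.4, 31.04 and 33.4 CPM in KO open field, below the 38.13 to 53.8 CPM of WT open field. Nr4a2 and Cnr1 were the other members at an unadjusted p under 0.05.

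The remaining members did not reach this level without offsets. Rab3b, a synaptic vesicle GTPase, was at -0.14 ± 0.09 (adjusted p = 0.459), and Kcnn2, a calcium-activated potassium channel, at -0.10 ± 0.07 (adjusted p = 0.512), turning to 0.003 among animal numbers under 600. With GC offsets Kcnn2 was at -0.18 (unadjusted p = 0.0334 by edgeR, adjusted p = 0.700). Sst, the precursor of somatostatin, was lower in KO than in WT after the open field, at 90.8, 82.1, 81.6, 82.5 and 85.1 CPM against 96.2 to 124.2 CPM (log2 fold change -0.35, adjusted p = 0.0353), and its basal difference was -0.28 (adjusted p = 0.132). The interaction of Sst was -0.07 ± 0.09 (adjusted p = 0.762), so without offsets the difference between the states was not larger than its error. With GC offsets the interaction of Sst was -0.20 (unadjusted p = 0.0311 by edgeR, adjusted p = 0.700). Crhbp, the binding protein of corticotropin-releasing hormone, was lower in KO in the basal condition (-0.44, adjusted p = 0.0374) and at -0.40 after the open field (adjusted p = 0.0562), with an interaction of 0.04 ± 0.12 that reversed to -0.02 with limma voom. Blnk, an adaptor of B-cell receptor signalling, was lower in KO in the basal condition (-0.78, adjusted p = 0.00237) with an interaction of 0.30 ± 0.16 (adjusted p = 0.370). Bdnf (-0.05 ± 0.14) and Npy (0.08 ± 0.13) were within their errors of 0, and both reversed with GC offsets. Grin2b spread widely between mice, from 22.4 to 147.4 CPM over the 24 libraries, and its interaction was -0.43 ± 0.54.

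Neuropeptide and granule precursors were positive in 14 and negative in 15 of 29 genes, and without replicate 4 of the KO open field group in 16 and 13. Crh, corticotropin-releasing hormone, was at -0.84 ± 0.29 (adjusted p = 0.227) at a low level, with 0.29, 0.60, 0.56, 0.62 and 1.03 CPM in KO open field libraries against 0.76 to 1.25 CPM in WT open field. All but replicate 5 of the KO libraries were below the WT range. In the basal condition Crh ranged from 0.70 to 1.16 CPM in KO and from 0.61 to 0.99 CPM in WT.

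Each of the differences that make up the interaction was called for few genes. KO against WT gave 18 genes in the basal condition (0.117%), 14 of them lower in KO, and 28 after the open field (0.182%), 13 higher and 15 lower. The open field against the basal condition gave 31 genes in WT (0.202%), 28 of them higher, and 14 in KO (0.0911%), 12 of them higher. Without GABA-CB1-KO open field replicate 4 the KO response was called for 1 gene and the KO against WT difference after the open field for 17. Without GABA-CB1-KO basal replicate 5 the responses were called for 75 genes in WT and 58 in KO. That library is not part of the WT response and acts on it only through the shared fit. Of the genes called in 1 state alone, Slc30a1, a zinc exporter, was lower in KO after the open field (log2 fold change -0.21, adjusted p = 0.0467) with an interaction of -0.25 ± 0.06 (adjusted p = 0.198). Stx6 was lower in KO in the basal condition (-0.15, adjusted p = 0.0388) and at 0.02 after the open field (adjusted p = 0.719). Rnf10, a RING finger protein, rose after the open field in KO (0.11, adjusted p = 0.0425) and was at -0.0015 in WT, with an interaction of 0.11 ± 0.03 (adjusted p = 0.201) that was 0.03 with GC offsets. Beside the genes of lowest p, DESeq2 called the interaction of Sptb, Grik1, Kcnab2, Slc30a1 and Rnf10 over all libraries, and of these Rnf10 alone without GABA-CB1-KO open field replicate 4.

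In the Glu-CB1 line, where CB1 is deleted with nex-Cre and which shares no library with the GABA-CB1 line, the same contrast gave 0 calls of 15355 genes by edgeR and 0 by DESeq2, with 379 genes (2.47%) at an unadjusted p under 0.05. The difference of the interaction between the lines was tested over all 48 libraries. edgeR called 0 of 15570 genes, with 1751 (11.2%) at an unadjusted p under 0.05, and DESeq2 called 2. For Pwwp2b the Glu-CB1 interaction was -0.13 and the difference between lines 0.41 ± 0.11 (adjusted p = 0.311). The median interaction in the Glu-CB1 line was 0.00 in the bin of lowest and -0.01 in the bin of highest GC content.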

How the data were processed

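The deposited table held raw counts per gene, which the authors made with FastQC, adapter and quality trimming, STAR 2.6.0a on mm10, MultiQC 1.8 and strand-specific featureCounts 1.6.2. RNA had been amplified by the NuGEN Ovation system before single-end sequencing. The file listed 24421 genes, of which 3596 had no count in the 24 libraries. Groups were taken from the sample labels, with 1 library per mouse, so p-values measure the spread between these mice. The interaction was fitted with edgeR 4.0.16 (R 4.3.3), with TMM normalisation, expression filtering, the quasi-likelihood test and Benjamini-Hochberg adjustment at 0.05 over all genes tested. DESeq2 1.42.0 and limma 3.58.1 (voom with sample quality weights) were alternatives. An interaction is the log2 fold change of KO against WT after the open field minus that in the basal condition. CPM were TMM-normalised.

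GC content was that of the longest protein-coding transcript of GENCODE vM21 on GRCm38. Offsets were lowess curves (span 0.3) per library on GC content and then on log length. The GC index used log2 CPM with a prior count of 2 and was tested by permuting genotype within each state. The code was tested on simulated data. Genes named were any called by edgeR's test of the interaction (0), the 24 of lowest p with a mean of at least 1 CPM, the 16 genes named by the study, Ttr and choroid plexus markers, up to 3 of lowest p and those called in a simple difference from each list, and genes called in 1 state or genotype alone. Members and lists were chosen with earlier results of these data known. The offsets, the GC index and its test, and the fits without both libraries high in Ttr were chosen after seeing the data. So were DESeq2 without 1 library and the differences without single libraries. Some members of the lists are counted but not reported by name here.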

Additional observations from a re-analysis of the deposited data

Results flagged for a closer look

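Single libraries far from the rest of their group were found in 33 of 328 group tests (10.1%), by the gap to the nearest library relative to the range of the group, and chance gives about 1 in 20. GABA-CB1-KO open field replicate 4 stood above its group in Ttr (3877 CPM), the summed choroid plexus and ependyma list (5550 CPM), Slc4a5 (17.2 CPM), Kcne2 (16.95 CPM) and Folr1 (14.3 CPM). GABA-CB1-WT basal replicate 3 stood above its group in Ttr (1392 CPM), the same list (2438 CPM), Slc4a5 (9.45 CPM), Kcne2 (8.30 CPM), Folr1 (7.52 CPM) and Tmem198 (38.3 CPM).

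GABA-CB1-KO basal replicate 5 stood above its group in Fos (9.67 CPM), Fosb (9.09 CPM), Fosl2 (68.1 CPM), Egr1 (151.8 CPM), Egr2 (9.73 CPM), Nr4a3 (174.8 CPM), Errfi1 (62.3 CPM), Bdnf (52.9 CPM) and Pcsk1 (23.45 CPM), and below it in Matn2 (81.6 CPM). GABA-CB1-WT basal replicate 2 stood above its group in Arc (119.1 CPM) and Nr4a1 (54.5 CPM).

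The remaining libraries were each apart in 1 to 3 measures. GABA-CB1-KO basal replicate 3 had the lowest total count (25892654 reads), and replicate 4 of that group was low in summed dentate markers (506.9 CPM) and Mgll (188.6 CPM). In the same group replicate 6 was high in Stx6 (75.7 CPM) and replicate 2 low in Grin2b (31.1 CPM). GABA-CB1-WT open field replicate 5 was high in Ttr (51.2 CPM) and Slc4a5 (0.463 CPM) and low in Adra1d (47.8 CPM), and replicate 7 was high in Pwwp2b (36.4 CPM). GABA-CB1-KO open field replicate 3 was low in Limd2 (90.3 CPM).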

How the results depend on the processing

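DESeq2 called 63 interaction genes, and 12 without GABA-CB1-KO open field replicate 4, where edgeR called 0, and edgeR called 0 to 1 when each library was left out in turn. At an unadjusted p under 0.05 there were 474 genes within animal numbers under 600, 1301 over 600, 1093 with GC and length offsets, 956 with offsets and without both libraries high in Ttr, and 1004 by DESeq2 with offsets. Without replicate 4 of the KO open field group, KO against WT after the open field gave 17 genes and the KO response 1, and with offsets these gave 11 and 3. Without GABA-CB1-KO basal replicate 5, KO against WT in the basal condition gave 4 genes, the response in WT 75 and that in KO 58. DESeq2 called 2 genes for the difference between lines. The causes were not tested.

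Replicate numbers were shared across groups. Same-numbered libraries did not deviate together (33 pairs, correlation -0.33 to 0.28, 1 library closest to its own number), so the numbers were not treated as pairs. The labels do not say whether such libraries shared anything else, and weak correlations cannot exclude it. The fit with the replicate block called 0 genes, with 1803 at an unadjusted p under 0.05, and turned Arc to -0.017 and Tdo2 to -0.0094.

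Of 78 genes, 67 kept their direction in every setting run. Among animal numbers under 600, Kcnn2 was at 0.0031, Bdnf at 0.065, Tdo2 at -0.16, Junb at 0.029, Egr2 at 0.020 and Gadd45g at -0.061, and over 600 Crhbp was at -0.068 and Nr4a1 at 0.025. With limma voom Crhbp was at -0.024 and Tdo2 at -0.061. With offsets Bdnf was at 0.11, Npy at -0.039 and Arc at -0.095, and by DESeq2 with offsets Bdnf was at 0.11, Npy at -0.039 and Arc at -0.092. Without both libraries high in Ttr, Arc was at -0.19, Tdo2 at -0.18 and Kcne2 at -0.23, and with offsets as well Bdnf was at 0.084, Npy at -0.0023, Arc at -0.28, Tdo2 at -0.087, Gadd45g at -0.013 and Kcne2 at -0.22. Without KO open field replicate 4 Arc was at -0.22 by edgeR and by DESeq2. With marker covariates Arc was at -0.13, Tdo2 at -0.24 and Kcne2 at -0.64, and with the range covariate Bdnf was at 0.014. Leaving out 1 library moved Crhbp between -0.079 and 0.10, Bdnf between -0.10 and 0.044, Arc between -0.22 and 0.16, Tdo2 between -0.18 and 0.20 and Junb between -0.073 and 0.082.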
